A study of Rattus norvegicus with 12 samples.

Results

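The dual-specificity phosphatases that switch off MAP kinases form a small gene family, and 10 of its members were followed here: Dusp1, Dusp2, Dusp3, Dusp4, Dusp5, Dusp6, Dusp7, Dusp8, Dusp10 and Dusp16. A probe set (the group of array probes read as 1 value) was taken as a member when the platform's table gave it a single gene symbol from this list. That gave 13 of 31042 non-control probe sets, for 9 of the 10 genes (of 14217 genes so named on the array), and Dusp16 had none. Of the 13, 12 passed the filter on dim values and were tested. The Dusp4 probe set did not. Total RNA was measured on 12 arrays of rat cerebellar granule neuron cultures, 3 in each of 4 groups. Each array is titled for low potassium or for GW5074 and for a time of 3 h or 6 h, and within each group the arrays carry the letters A, B and C. The compound GW5074 inhibits protein kinases. The labels do not say which potassium level the cultures given GW5074 were kept in, nor the strain or age of the animals. No group is labelled as raised potassium, so every difference below is between GW5074 and low potassium or between the times.

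A MAP kinase is active when a threonine and a tyrosine in its activation loop both carry phosphate, and these phosphatases remove both. The ERK, JNK and p38 kinases are the substrates. Some members sit in the nucleus and are induced within the hour as immediate early genes, some sit in the cytoplasm and act on ERK, and others act on JNK and p38. Because several of the genes are themselves switched on by MAP kinase signalling, their transcripts are commonly read as a gauge of it. In granule neurons, lowering potassium is a standard way to bring on cell death, and JNK acting on Jun is a known part of that response.

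The upstream sequences of the 3 members with the most to report are shown because they differ in a site for cyclic-AMP and calcium-responsive factors. Each is the 250 bases before the transcription start, 5′ to 3′ on the gene's strand, from RefSeq (GRCr8): chr10:17184603-17184852 for Dusp1, chr1:262543524-262543773 for Dusp5 and chr7:35979354-35979603 for Dusp6, all on the plus strand. Capitals mark matches on either strand to the cyclic-AMP response element (CRE, TGACGTCA), its half-site (TGACG, which the full element also contains), the AP-1 site (TGANTCA) and the EGR site (GCGNGGGCG).
Dusp1: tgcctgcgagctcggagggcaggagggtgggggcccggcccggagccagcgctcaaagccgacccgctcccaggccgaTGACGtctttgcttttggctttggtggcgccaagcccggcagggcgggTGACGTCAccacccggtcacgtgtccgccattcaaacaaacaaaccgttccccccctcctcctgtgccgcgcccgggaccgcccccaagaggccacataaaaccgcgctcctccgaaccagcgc
Dusp5: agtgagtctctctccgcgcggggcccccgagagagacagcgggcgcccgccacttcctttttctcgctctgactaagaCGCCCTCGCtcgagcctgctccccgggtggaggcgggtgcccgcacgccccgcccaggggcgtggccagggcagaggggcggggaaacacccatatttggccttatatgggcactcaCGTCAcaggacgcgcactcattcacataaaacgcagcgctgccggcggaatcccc
Dusp6: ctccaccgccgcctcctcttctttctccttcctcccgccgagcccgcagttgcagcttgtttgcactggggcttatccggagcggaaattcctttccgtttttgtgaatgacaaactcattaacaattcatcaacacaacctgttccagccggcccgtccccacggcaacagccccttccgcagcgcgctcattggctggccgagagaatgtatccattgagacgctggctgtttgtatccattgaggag

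The Dusp1 window held 1 full CRE, whose first base lies 124 bases before the start, and a separate half-site 172 bases before it. The Dusp5 window held a half-site starting 55 bases before the start and an EGR site starting 172 bases before it. None of these patterns was found in the Dusp6 window, and no member's window held the AP-1 letters. A full CRE was present in 1.59% of 33469 such windows over all genes, a half-site in 18.2%, an EGR site in 4.29% and an AP-1 site in 6.34%. Among the 9 members with a window, 5 held a half-site (Dusp1, Dusp2, Dusp3, Dusp5 and Dusp16) and Dusp1 alone the full element. Dusp8, like Dusp6, Dusp7 and Dusp10, held neither. An EGR site was also found in the windows of Dusp2, Dusp8 and Dusp16. These are matches of letters, not measured sites.

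Values below are the authors' deposited intensities on a linear scale, and ± is the SD over 3 arrays unless it follows a log2 change. Log2 changes are of quantile-normalised values with 16 added, and their ± is the standard error. A probe set is said to have passed, risen or fallen when its adjusted p (Benjamini-Hochberg over 18625 probe sets, two-sided, limma) was under 0.05. The fit without pairs is the planned one. In the paired fit the letter within a time is a block, because arrays that share a letter and a time deviated together (correlations of 0.21 to 0.65). Nothing in the labels says that the letters are separate cultures, so the p-values measure the spread between these arrays, which may be technical.

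Some properties of the arrays bear on all members. Placed on a line from the mean of the low-potassium arrays at 3 h (0) to that at 6 h (1), the 3 h arrays lay between -0.084 and 0.118. At 6 h, letters A and C lay between 1.00 and 1.17, while letter B fell short, with 0.726 for its low-potassium array and 0.601 for its GW5074 array. All 11 granule neuron markers with a probe set passed the dim-value filter, as did 7 of 8 astrocyte and 6 of the 8 measured oligodendrocyte-lineage markers, so the cultures were not of neurons alone. In such bulk samples, fewer cells of a type and less RNA per cell cannot be told apart. The title of the GW5074 6 h array of letter A has a suffix unlike that of the other 11 titles.

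**Figure D1:**
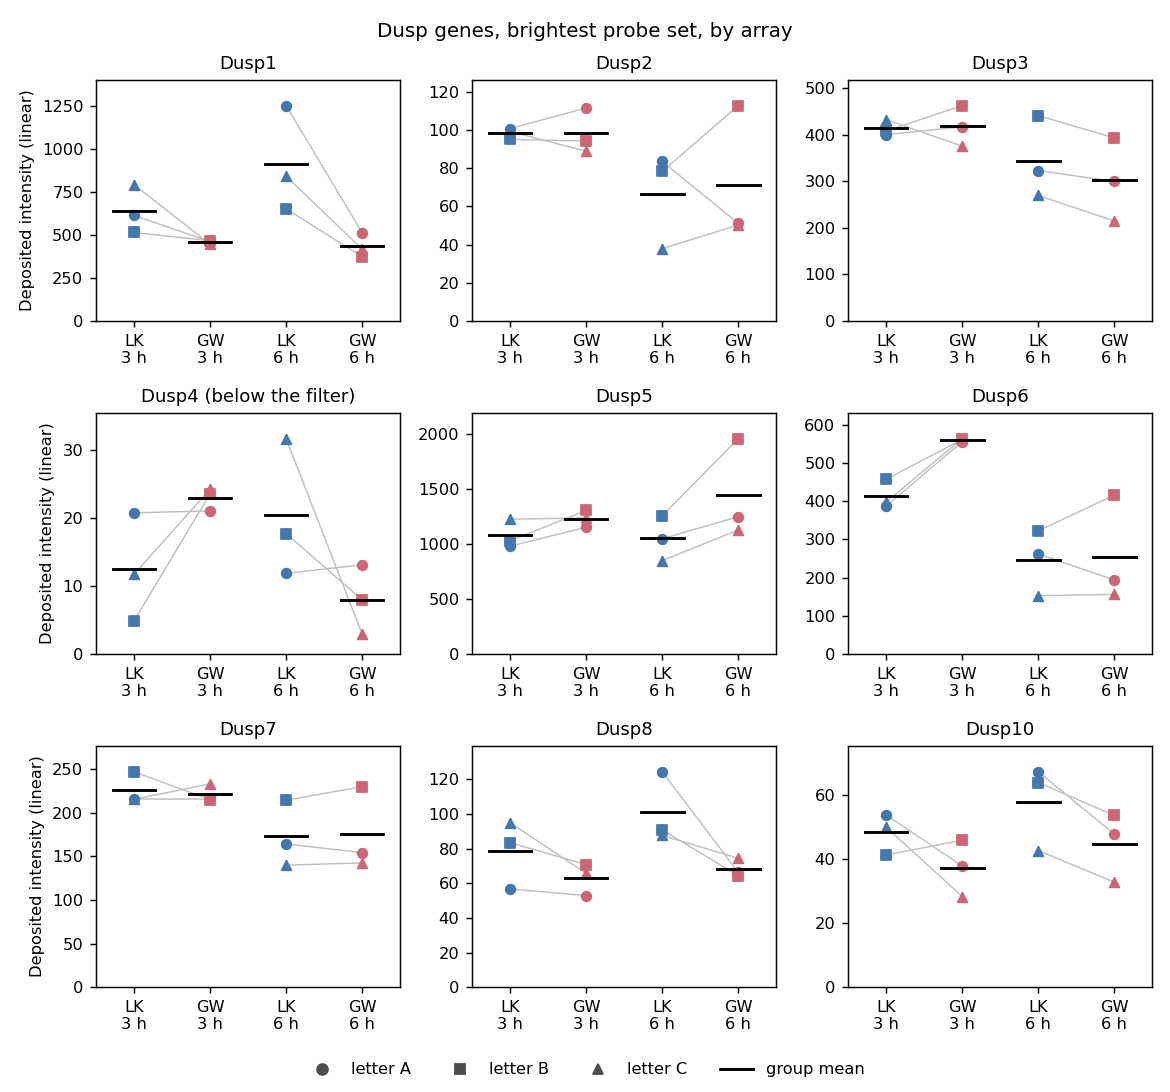
Deposited intensity (linear, y axis from 0) of the 9 measured Dusp genes on each of the 12 arrays, by their brightest probe set, with low potassium (LK, blue) and GW5074 (GW, red) at 3 h and 6 h. Symbols give the letter, grey lines join arrays of a letter and bars are means of 3 arrays. Dusp1 lies lower with GW5074 on every line and Dusp5 higher, and Dusp6 is lower at 6 h in both treatments.

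Among the nuclear, inducible members, Dusp1 showed the largest difference with GW5074. Dusp1 acts on p38, JNK and ERK and is a classic immediate early gene. By its brighter probe set, low potassium at 3 h gave 614, 515 and 793 for letters A, B and C, and GW5074 gave 462, 467 and 447. Every low-potassium array lay above every GW5074 array, and the GW5074 arrays lay close together (459 ± 10.5 against 641 ± 141). At 6 h low potassium gave 1252, 652 and 842, and GW5074 gave 513, 374 and 418. Again the groups did not overlap, with means of 915 ± 307 and 435 ± 70.8. The mean was highest in low potassium at 6 h and next highest at 3 h in the same treatment. It was lowest with GW5074, where 6 h lay below 3 h. The step between the times did not pass in either treatment (limma without pairs, log2 0.50 ± 0.21 and adjusted p = 0.109 for low potassium, -0.13 ± 0.21 and 0.706 for GW5074).

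In the paired fit Dusp1 fell 2.07-fold with GW5074 at 6 h (log2 -1.05 ± 0.12, limma adjusted p = 2.83e-04) and had the tenth smallest p of the 18625 (rank 10). Without pairs the same difference did not pass (adjusted p = 0.333). Within pairs it was -1.36 in letter A, -0.80 in B and -0.98 in C. At 3 h it was -0.39, -0.12 and -0.77, with a mean of -0.42 ± 0.12 that did not pass (paired adjusted p = 0.624). Averaged over both times Dusp1 fell by 0.73 (paired adjusted p = 6.25e-04, without pairs 0.583), lower in 6 of 6 pairs. The change at 6 h was larger than that at 3 h by 0.62 in size, but that difference between the times did not pass (interaction -0.62 ± 0.17, paired adjusted p = 0.125, without pairs 1).

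The dimmer Dusp1 probe set gave similar log2 differences at a lower signal. It read 91.9, 94.2 and 75.7 in low potassium, against 67.1, 77.4 and 41.5 with GW5074 at 3 h, where the groups overlapped. At 6 h it read 248, 124 and 136 against 66.7, 61.2 and 66.1, with no overlap. It fell by 1.10 at 6 h (paired adjusted p = 0.00574, without pairs 0.445) and by 0.78 over both times (paired 0.0114, without pairs 0.927), again lower in 6 of 6 pairs. From 3 h to 6 h it rose in low potassium (0.74 ± 0.25, adjusted p = 0.0441 without pairs), with all 6 h arrays above all 3 h arrays, while with GW5074 the step was 0.11 ± 0.25 (adjusted p = 0.791). The difference between those steps is the interaction, which was -0.64 and did not pass (adjusted p = 1 without pairs, paired 0.276).

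Limits of the Dusp1 result lie in single arrays and in how the variance is estimated. Without the mean-variance trend the paired calls ended (adjusted p = 0.124 and 0.141 at 6 h). Of all probe sets that fit called 0.00537% at 6 h, against 1.87% with the trend. Without the 6 h pair of letter A the call of the dimmer probe set ended too (0.0924), and over both times its call held in 8 of 13 alternatives. The rise of the dimmer probe set in low potassium was 0.457 without the letter A array at 6 h (adjusted p = 0.194), and that call ended in 10 of 24 alternatives. For actin, the log2 excess of the 3-prime over the 5-prime probe set, which RNA breakdown raises, was greater under GW5074 in all 3 pairs of each time (mean 0.112 at 3 h, 0.111 at 6 h). For GAPDH it was greater in 2 of 3 pairs at each time (mean 0.0316 and 0.0222). The polyA spike-in RNAs had a smaller mean log2 signal on the GW5074 array of all 3 pairs at 6 h (mean difference -0.322), and at 3 h a larger one in 1 of 3 (0.0276). The part of these in the Dusp results was not tested. Among marker lists, the summed microglia and macrophage signal (5 of 9 genes above the filter) was lower with GW5074 in 5 of 6 pairs, with ranges of 441 to 755 in low potassium and 399 to 562 with GW5074 at 6 h. That of endothelial cells and fibroblasts (3 of 9 above the filter, with Pecam1, Cldn5, Kdr and Flt1 below it) was lower in 5 of 6 pairs, with ranges of 211 to 318 and 164 to 330.5. That of Purkinje and GABAergic neurons (7 of 7 above the filter) was lower in all 3 pairs at 6 h and 4 of 6 in all, with ranges of 1056 to 1222 and 978 to 1072 at 6 h. Single genes went both ways at 6 h, and no tested gene of these lists passed in the paired fit. Csf1r (0.19) and Cd68 (0.02) were higher, and C1qa (-0.35), Tyrobp (-0.06) and C1qb (-0.05) lower. Col3a1 (0.08) was higher, and Col1a2 (-0.23) and Col1a1 (-0.05) lower. Slc32a1 (0.29) and Car8 (0.14) were higher, and Pcp2 (-0.39), Calb1 (-0.36), Pvalb (-0.35), Gad2 (-0.23) and Gad1 (-0.03) lower. The part of these markers was not tested either.

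Dusp5, a nuclear phosphatase specific for ERK, differed in the opposite direction. At 3 h it read 981, 1030.0 and 1227 in low potassium, against 1154, 1306 and 1238 with GW5074. At 6 h it read 1049, 1258 and 850.4 in low potassium, against 1250.0, 1959 and 1129 with GW5074. The groups overlapped at both times, but the GW5074 array was the higher in 6 of 6 pairs. The pair differences were 0.22, 0.30 and 0.07 at 3 h and 0.27, 0.64 and 0.42 at 6 h. Dusp5 rose 1.36-fold at 6 h in the paired fit (log2 0.44 ± 0.08, adjusted p = 0.0108, without pairs 0.983) and by 0.32 over both times (paired 0.0222, without pairs 1). With the pair as a random effect neither passed (adjusted p = 0.112 and 0.26). In the same paired fit 1 of 11 granule neuron markers rose at 6 h, Slc17a7, a vesicular glutamate transporter, by 0.42 ± 0.06 (paired adjusted p = 0.00429, random effect 0.0929). The list's median was 0.16, and its part in the Dusp5 result was not tested. The interaction was 0.25 ± 0.11 and did not pass (paired adjusted p = 0.356).

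The Dusp5 mean was highest with GW5074, at 1446 ± 448.5 after 6 h and 1233 ± 76.2 after 3 h. In low potassium it was 1052 ± 204 after 6 h and 1079 ± 130 after 3 h. Neither step between the times passed (limma without pairs, log2 0.01 and adjusted p = 0.98 for low potassium, 0.25 and 0.365 for GW5074). The 6 h call ended without the letter B pair (adjusted p = 0.0739) and without the trend (0.214). Without the GW5074 letter B array alone, the difference at 6 h was 0.199. The call over both times held in 6 of 13 paired alternatives and ended without the 3 h pair of letter A (0.125) or B (0.123), among others.

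Dusp2 and Dusp4 are the remaining nuclear members, both known as inducible in stimulated cells. Dusp2 read 101, 95.0 and 99.2 in low potassium, against 111, 94.2 and 88.8 with GW5074 at 3 h, and 83.5, 78.2 and 37.9 against 51.1, 113 and 50.2 at 6 h. Neither treatment difference passed (log2 -0.01 and 0.08, paired adjusted p = 0.996 and 0.873). At 6 h all low-potassium arrays lay below those at 3 h (log2 -0.55 ± 0.25, adjusted p = 0.13), and the step with GW5074 was -0.45 ± 0.25 (adjusted p = 0.203), neither past the threshold. Dusp4 was the dimmest member relative to the array, at the 27.9th percentile of probe set means, with values from 2.94 to 31.6. It was not tested.

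Dusp6, the cytoplasmic phosphatase specific for ERK and a feedback target of that kinase, fell between the times with GW5074 by all 3 of its probe sets. Its brightest probe set read 387, 457 and 397 in low potassium, against 556, 561 and 563 with GW5074 at 3 h. Every GW5074 array lay above every low-potassium array, and the GW5074 arrays had an SD of only 3.86. At 6 h the readings were 262, 322.5 and 153 in low potassium, against 194, 415.5 and 156 with GW5074, so the groups overlapped. From 3 h to 6 h Dusp6 fell 2.38-fold with GW5074 (log2 -1.25 ± 0.29, adjusted p = 0.00819 without pairs). In low potassium the step was -0.81 ± 0.29 and did not pass (adjusted p = 0.061), although the arrays of the times did not overlap. With the letter within time as a random effect it passed (0.0331).

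Marker signals of some cell types also differed between the times. Of 11 granule neuron markers tested, limma without pairs called 6 higher at 6 h in low potassium and 11 with GW5074, and 0 lower. Their summed signal ranged from 6008 to 7890 at 3 h and 11790 to 12960 at 6 h in low potassium, and from 5861 to 7132 and 11490 to 14290 with GW5074. The astrocyte sum lay higher at 6 h in low potassium (2995 to 4742, against 1970 to 2325) and with GW5074 (3104 to 3353, against 1793 to 2157). Its brightest gene, Gfap, rose by 1.87 ± 0.43 in low potassium (limma without pairs, adjusted p = 0.00808), and no other tested marker of that list passed there. Aqp4 (0.62), Fabp7 (0.39) and S100b (0.07) went up, and Slc1a3 (-0.33), Aldh1l1 (-0.26) and Gja1 (-0.13) went down. The oligodendrocyte-lineage sum lay lower at 6 h in low potassium (1916 to 2128, against 2498 to 3206) and overlapped with GW5074 (1512 to 2297, against 2116 to 2817). Mbp was by far the brightest gene of that list (mean 1863, next Olig1 at 146). In low potassium Mbp did not pass (-0.40 ± 0.17, limma without pairs, adjusted p = 0.101). No other tested marker of the list passed there either, and Olig1 alone went up (0.19). The part of these shifts in the Dusp time changes was not tested.

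Its other probe sets were read separately. With GW5074 from 3 h to 6 h both fell, the one of middle brightness by 1.21 (limma without pairs, adjusted p = 0.0346) and the dimmest by 1.09 (0.00412), so all 3 Dusp6 probe sets fell there. In low potassium the dimmest fell by 0.86 (adjusted p = 0.0156), whereas the middle one had -0.37 ± 0.39 (adjusted p = 0.524). The Dusp6 step was not shown to differ between treatments, as none of the 3 interactions passed (from brightest to dimmest, log2 -0.44, -0.85 and -0.23, paired adjusted p = 0.29, 0.239 and 0.741). The falls of the brightest and the dimmest with GW5074 held in all 25 and 24 alternatives. That of the middle one ended without the filter (0.054), without the trend (0.0505), or without any of 5 single GW5074 arrays, and its low-potassium step was 0.121 without the letter C array at 6 h. The call of the dimmest in low potassium ended without the letter B array at 3 h (0.0557) or the letter C array at 6 h (0.0779).

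With GW5074 at 3 h the 3 Dusp6 probe sets had 0.42 ± 0.13, 0.80 ± 0.22 and 0.35 ± 0.17, none past the threshold (paired limma adjusted p = 0.624, 0.568 and 0.769; without pairs 1 for each). For the middle one the arrays read 169, 289.5 and 245 in low potassium, against 419, 376 and 460.3 with GW5074, which did not overlap. For the dimmest they read 162, 179 and 188 against 249, 269 and 181, which did. At 6 h all 3 probe sets were lower with GW5074 in letter A (-0.43, -0.995 and -0.40) and higher in letters B (0.34, 0.40 and 0.49) and C (0.02, 0.47 and 0.30). In the letter A pair at 6 h the GW5074 array has the unlike title. Without this pair, the only 6 h pair in which Dusp6 was lower, the middle probe set passed over both times (0.62, paired limma adjusted p = 0.0252). With the pair it had 0.38 and 0.415. Of all probe sets, 0.161% passed over both times without the pair and 0.236% with it. Probe sets of a gene share its transcript and are not replicates.

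Dusp7, the other cytoplasmic ERK phosphatase, read 216, 247 and 215.5 in low potassium, against 216, 215 and 233 with GW5074 at 3 h. At 6 h it read 164, 214 and 140.0 against 154, 230.0 and 142.5. The treatment difference was -0.03 ± 0.11 at 3 h and 0.00 ± 0.11 at 6 h (paired limma adjusted p = 0.982 and 0.999). All 6 h arrays in low potassium lay below those at 3 h (log2 -0.44 ± 0.18, adjusted p = 0.0955), and the step with GW5074 was -0.41 ± 0.18 (0.115). Neither passed with all arrays, but without both 6 h arrays of letter B, an alternative chosen after seeing the data, both did (0.00734 and 0.00638).

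Of the members that act on JNK and p38, Dusp8 and Dusp10 were measured. Dusp8 read 56.7, 83.4 and 94.9 in low potassium, against 52.8, 70.8 and 65.7 with GW5074 at 3 h. At 6 h it read 124, 90.8 and 87.5 against 66.2, 64.3 and 74.4, and there the groups did not overlap. Dusp8 was lower with GW5074 in 6 of 6 pairs, as Dusp1 was, but did not pass at 6 h (log2 -0.42 ± 0.16, paired limma adjusted p = 0.197, without pairs 0.983) or over both times (-0.33 ± 0.11, paired 0.32, without pairs 1). Dusp10 read 53.6, 41.2 and 49.9 against 37.8, 45.8 and 28.2 at 3 h, and 67.1, 63.8 and 42.6 against 47.6, 53.5 and 32.7 at 6 h. It was lower in 5 of 6 pairs and did not pass (-0.25 ± 0.19 at 6 h, paired adjusted p = 0.576). Neither had a time step past the threshold (log2 between 0.11 and 0.29).

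Dusp3 is a small phosphatase that lacks the kinase-docking domain of the larger members. Its brighter probe set read 400.2, 408 and 433 against 417, 463 and 375 at 3 h, and 323, 441 and 269.6 against 300, 393 and 215 at 6 h. It was lower with GW5074 in all 3 pairs at 6 h but did not pass (-0.21 ± 0.10, paired limma adjusted p = 0.308). The 3 h to 6 h step was -0.31 ± 0.21 in low potassium and -0.54 ± 0.21 with GW5074 (adjusted p = 0.296 and 0.0722 without pairs). With the letter within time as a random effect the GW5074 step passed (0.0416) and the low-potassium step did not (0.238). The other probe set, at 92.2 to 150 over the 12 arrays, had steps of -0.22 and -0.30, which did not pass either.

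**Figure D2:**
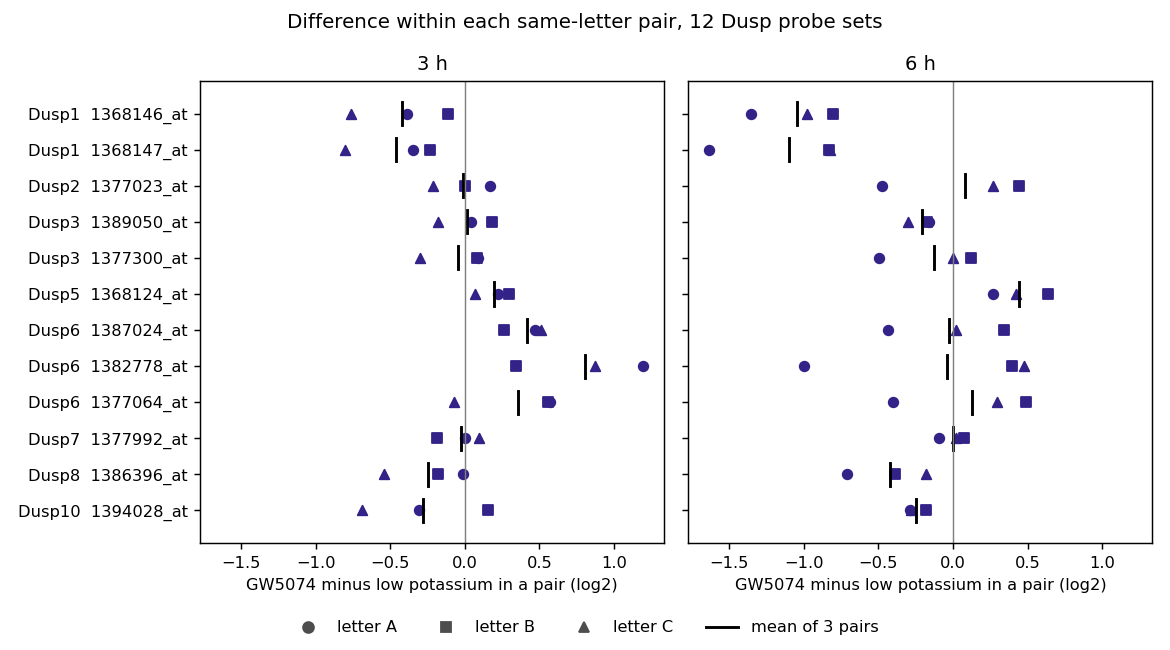
GW5074 minus low potassium within each pair of a letter (log2, x axis) at 3 h and 6 h for the 12 tested Dusp probe sets, with a symbol per letter and a bar at the mean of 3 pairs. Both Dusp1 probe sets and Dusp8 lie left of 0 in all 6 pairs and Dusp5 right of 0 in all 6, while at 6 h letter A of Dusp6 lies left of 0 and letters B and C right of it.

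Counted over the 12 tested member probe sets, limma without pairs called 0 in each GW5074 comparison (3 h, 6 h, both times and the interaction), where it called 0% of all probe sets. At an unadjusted p under 0.05, it had 0, 4, 4 and 0 member probe sets, beside 1.61%, 4.81%, 2.51% and 3.46% of all probe sets. Both times the 4 were both Dusp1 probe sets, Dusp5 and Dusp8. The paired fit called 0 members at 3 h, beside 0.0161% of all probe sets. There 5 probe sets had an unadjusted p under 0.05 (2 of Dusp1, 2 of Dusp6 and that of Dusp5), beside 6.58%. At 6 h the paired fit called 2 that fell (both of Dusp1), beside 0.923%, and 1 that rose (Dusp5), beside 0.945%. Over both times the same 3 were called, beside 0.177% of all falling and 0.0591% rising. For the interaction the paired fit called 0 members, beside 0.177%. The same 5 probe sets as at 3 h had an unadjusted p under 0.05, beside 13.5%. They belong to Dusp1, Dusp5 and Dusp6 only, so they do not count as 5 genes. With the pair as a random effect the members called were 0, 2, 2 and 0 in the same order, at 6 h and over both times the 2 Dusp1 probe sets, which fell, beside 0.279% and 0.0859% of all probe sets falling. Where it called 0, 4 member probe sets at 3 h and 3 for the interaction had an unadjusted p under 0.05, beside 6.31% and 12% of all. At 3 h these were 2 of Dusp1 and 2 of Dusp6, and for the interaction 2 of Dusp1 and 1 of Dusp6.

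The median log2 change of the 12 at 6 h was -0.08, against 0.00 for all probe sets. Groups that did not overlap were counted too. At 3 h 2 members were higher with GW5074 (both Dusp6), beside 3.19% of all probe sets, and 1 lower (Dusp1), beside 4.02%. At 6 h 0 were higher, beside 5.04%, and 3 lower (both Dusp1 probe sets and Dusp8), beside 4.70%.

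**Figure D3:**
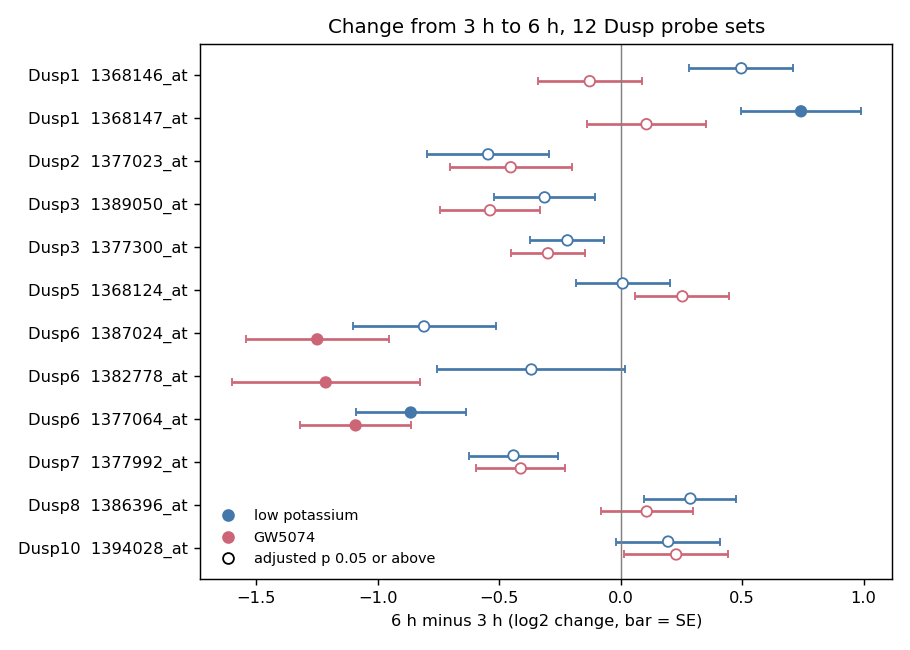
Log2 change from 3 h to 6 h (x axis, bars are the standard error) of the 12 tested Dusp probe sets in low potassium (blue) and with GW5074 (red), from limma without pairs on 3 arrays a group. Filled points passed an adjusted p of 0.05: all 3 Dusp6 probe sets with GW5074, 1 Dusp6 probe set in low potassium, and 1 Dusp1 probe set, which rose, in low potassium.

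Between the times, 1 of 12 member probe sets rose in low potassium (Dusp1), beside 11.6% of all probe sets, and 1 fell (Dusp6), beside 11.0%. With GW5074 0 rose, beside 13.1%, and 3 fell (all of Dusp6), beside 11.9%. The low-potassium counts are close to the background. The median step of the 12 was -0.27 for low potassium, -0.36 for GW5074, against 0.00 for all probe sets in each. Arrays of the times did not overlap for 4 lower members in low potassium, beside 19.4%, and 4 with GW5074, beside 18.9%. Higher at 6 h without overlap were 1 in low potassium, beside 19.8%, and 0 with GW5074, beside 21.0%. These time comparisons share no arrays with each other, but each shares its arrays with the GW5074 comparisons.

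The letter B arrays at 6 h lay between the times over all probe sets. With GW5074, letter B was the highest of its 3 arrays for 9 of 12 member probe sets and the lowest for the other 3 (both of Dusp1 and Dusp8). Over all tested probe sets it was the highest for 37.4% and the lowest for 37%. In low potassium it was the highest for 4 members and the lowest for 3, beside 36.3% and 35.8% of all. Without both letter B arrays at 6 h, 7 of 12 members passed between the times in low potassium and 6 with GW5074, against 2 and 3 with all arrays. Over all probe sets the share called went to 29.8% and 31.4%, from 22.7% and 25% with all arrays. Those counts come from 2 arrays in each 6 h group.

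Across the 12 arrays, and by the brightest probe set, the members' log2 values were compared with each other. Dusp6 and Dusp7 had a Pearson r of 0.944, Dusp2 and Dusp6 0.896, Dusp3 and Dusp7 0.897 and Dusp3 and Dusp6 0.885. Dusp1 and Dusp8 had 0.801, and Dusp1 with Dusp6 -0.296. The arrays of a time share much of this pattern, and no test was made. The 6 pair differences were compared in the same way. In them the level at a time cancels, but a change of the GW5074 difference between the times stays in. For Dusp1 they averaged -0.42 at 3 h and -1.05 at 6 h, and for Dusp6 0.42 and -0.02. Over these differences Dusp1 and Dusp8 had a like value, 0.728. Other values were unlike those over the arrays: 0.713 for Dusp1 and Dusp6, -0.677 for Dusp3 and Dusp7 and 0.441 for Dusp6 and Dusp7. Dusp1 and Dusp3 had 0.822, against -0.0592 over the 12 arrays. Over the 12 arrays Dusp5 had r from -0.501 (with Dusp1) to 0.355 (with Dusp2), and over the pair differences from -0.235 (with Dusp3) to 0.715 (with Dusp2). Among 10253 other genes, those closest to Dusp1 were Jund (0.903), Pde3b (0.901) and Snx2 (0.892). Dusp5 had Gprin1 (0.904), Ppp1r13b (0.899) and B4galt5 (0.873), and Dusp6 had Fam76a (0.972), Ube2k (0.969) and Kiaa1671 (0.968).

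The other genes of the pathway were counted from lists, each gene by its brightest probe set. Without pairs, limma called 0 genes of these lists with GW5074 at 6 h. The paired fit there called 0 of 5 MAP kinase genes tested, 0 of 5 MAP kinase kinases and 0 of 9 tyrosine or serine/threonine phosphatases of MAP kinases, with medians of -0.01, 0.03 and -0.08 (all genes 0.02). Of 12 other regulators of MAP kinase signalling, which include the Sprouty, Spred and Gadd45 genes, 1 fell (Gadd45g, -0.58 ± 0.09, adjusted p = 0.00603) and 0 rose. That call was lost with the pair as a random effect (adjusted p = 0.144). Of 20 immediate early genes 4 fell and 2 rose (median -0.18), with Jun at -1.63 ± 0.14 (adjusted p = 2.83e-05) and Jund at -0.60 ± 0.07 (5.36e-04). With the random effect 2 fell, Jun and Jund, and 0 rose, and the other 4 had adjusted p from 0.138 to 0.237. Of 9 other Dusp genes tested 0 passed at 6 h. Closest to passing was Dusp14, at -0.49 ± 0.14 (paired adjusted p = 0.0867), which in low potassium rose by 0.73 ± 0.22 from 3 h to 6 h (adjusted p = 0.0261 without pairs). Dusp26, a neuronal member of the family, fell by 0.96 ± 0.22 over the same interval (0.00779). These time changes were named after their values were seen.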

How the data were processed

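The authors deposited linear intensities, a single value for each probe set on each array. The mean of an array without the 2% dimmest and 2% brightest probe sets was 150 to 150.1 on all 12, so the arrays had been scaled before deposit. For the software that did this, the version and settings are not given in these sources. Of 31099 probe sets 57 were controls. Of the others, 20826 had 1 symbol in the platform table, 436 several and 9780 none. Values were quantile-normalised, 16 was added and log2 taken, and probe sets with a mean at or above the 40th percentile were kept (18625). Tests across all probe sets used limma 3.58.1 in R 4.3.3 (mean-variance trend, two-sided, Benjamini-Hochberg), with 4 group means (8 residual degrees of freedom) or letter-within-time blocks (4). The script was checked on simulated data. Pairing was checked on deviations from the group means: same-letter arrays correlated by 0.425, 0.21 and 0.542 at 3 h and 0.293, 0.65 and 0.572 at 6 h, and across times by -0.0668 to 0.182. All members were to be named, with 3 genes of the highest correlation for each member called. Members and lists were chosen with earlier results of these data known. Alternatives changed normalisation, pseudocount, filter, trend, weights, blocks and single arrays. Figures used matplotlib 3.10.9 in Python 3.11.15.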

Additional observations from a re-analysis of the deposited data

How the results depend on the processing

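Of 2404 alternatives for single probe sets, 2325 kept their side of the threshold, 37 lost a call, 42 gained one and 0 were reversed; 109 uncalled values changed sign. In the fit without pairs, members called at 6 h and over both times went from 0 to 3 with the replicate block within time (paired) and to 2 with it as a random effect. Of all probe sets the block called 1.87% at 6 h and 0.236% over both times, and the random effect 0.553% and 0.0966%. In the paired fit, 3 members became 0 at 6 h and 0 over both times without the trend, and 2 to 3 at 6 h without single pairs. Over both times they became 1 without the filter, and between 1 and 3 without single pairs. At 6 h the share of all probe sets called was 0.00537% without the trend and 0.317% to 1.56% without single pairs. Over both times it was 0.0215% without the trend, 0.0612% without the filter and 0.0805% to 0.258% without single pairs. From 3 h to 6 h in low potassium, 2 members became 1 with a pseudocount of 1, without the filter and without the trend, 5 with array weights, 4 with a replicate block across times, 7 without both 6 h letter B arrays (chosen after seeing the data), and 0 to 5 without single arrays (0 without the letter B array at 3 h or letter C at 6 h of low potassium). With GW5074, 3 became 7 with array weights, 6 without both letter B arrays and 2 to 6 without single arrays. The shares of all probe sets called were in low potassium 22.7%, and 22% with a pseudocount of 1, 11% without the filter, 20.9% without the trend, 31.4% with array weights, 29.7% with the block across times and 29.8% without the letter B arrays; with GW5074 25%, 48.5% with array weights and 31.4% without the letter B arrays. Without single arrays the shares were 11.8% to 26.6% in low potassium and 13.2% to 28.8% with GW5074. No scaling moved the median of all probe sets by over 0.1. The cause of these shifts was not tested. Depth is unknown for arrays, and 3 arrays a group limit the precision.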
